A study of Mus musculus with 68 samples.

Results

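Csf1r, Mrc1, Ly6c2, Cd68, Cd14, Lyz2, C1qa, C1qb, C1qc and Cd163, a set of macrophage and monocyte genes, were followed across 23 intestinal specimens of mice that differed in Cftr and Apc. The 10 genes were chosen by symbol as commonly used markers of these cells, and each was found among the 23356 rows of the expression table. Poly(A) RNA had been sequenced from tumours and normal gut of C57BL/6 mice aged 3 months, with the stated aim of finding what Cftr deficiency changes. Cftr encodes an epithelial anion channel, and the Min allele of Apc gives mice intestinal tumours.

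In ApcMin mice, tumours labelled Cftr knockout came as 2 ileum and 2 colon specimens, tumours of Cftr heterozygous mice as 2 duodenal and 2 colon specimens, and tumours with wildtype Cftr as 2 ileum and 2 colon specimens. In Apc wildtype mice, the Cftr knockouts gave 2 duodenal tumours, 1 colon tumour, 2 normal duodenum and 2 normal colon specimens, and the Cftr wildtypes gave 2 normal duodenum and 2 normal colon specimens. The word knockout without ApcMin means these Apc wildtype mice below. Their knockout is a floxed Cftr allele deleted by Cre under the Villin promoter, which is active in gut epithelium and not in macrophages. Which Cftr allele the ApcMin mice carried is not stated in the labels, which call the heterozygotes a knockdown. The labels give whole tissue for colon and epithelium for duodenum. The design text instead describes epithelial cells for colon and, for duodenum, the organ stripped of villi. It speaks of 23 mice, but the specimens carry 10 animal numbers. Both tumours of each ApcMin group share 1 animal number, so genotype and animal cannot be told apart there. The ileum and colon tumours of a Cftr genotype also share that number, and normal duodenum and normal colon came from the same animals. The knockout colon tumour shares its animal number with knockout duodenal tumour 2.

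Macrophages of the adult gut are replenished from blood monocytes, which carry Ly6C on arrival and lose it as they mature in the tissue. Mature cells depend on the CSF1 receptor, take up dying cells and microbes, secrete complement C1q, and lie mostly in the lamina propria and muscle layer. In tumours, monocytes and macrophages are recruited by chemokines such as CCL2 and can make up much of the infiltrate.

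Values were FPKM (fragments scaled by transcript length and by library size). Relative depth varied 1.84-fold between the 68 columns, and 11 specimens had been read in both of 2 sequencing runs. Between the runs of 1 specimen a member typically differed by 1.06-fold to 1.12-fold (medians over 11 specimens), and no member was at 0 in any column. The 2 wildtype duodenum specimens differed from each other no more than lanes of 1 library do (ratio 0.924 in run 1 and 0.985 in run 2, against 2.05 to 6.24 in other groups), and were counted as 1 sample. The run 1 library of wildtype colon 2 stood apart from its run 2 library, with Lyz1 at 274 and 19.9 FPKM, while Lyz2 was at 291 and 286 FPKM. Xist, which females express, was at 24.0 to 55.6 FPKM in the 12 ApcMin tumours and at 0.0240 to 0.461 FPKM in the 8 normal specimens, so ApcMin tumour and sex cannot be told apart in comparisons with normal tissue. Knockout duodenal tumour 1 was at 34.2 FPKM of Xist as well. Cftr RNA was at 30.5 and 25.9 FPKM in knockout colon and 22.2 and 21.7 FPKM in wildtype colon, and at 14.3 and 21.3 FPKM in ApcMin knockout colon tumours and 18.0 and 24.8 FPKM in Cftr wildtype ones. It was at 40.1 and 31.2 FPKM in ApcMin knockout ileum tumours and 23.4 and 27.3 FPKM in Cftr wildtype ones, and at 33.0 and 47.2 FPKM in knockout duodenum and 31.3 and 32.0 FPKM in wildtype duodenum. The specimens labelled knockout were thus above wildtype without overlap in normal colon, duodenum and ileum tumours, and overlapped with wildtype in ApcMin colon tumours. A value over the whole gene does not check a deletion of part of it. The replicates are labelled as separate specimens, and p-values measure the spread between them, pooled over all groups. Both specimens of an ApcMin group share an animal, so that pooled spread lies partly within animals, also where normal tissue is compared.

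The 3 chains of C1q, the recognition molecule of the classical complement pathway, were the most uniform members. Their genes lie side by side on the minus strand of chromosome 4 (GRCm38), with C1qb at 136880129 to 136886187, C1qc at 136889804 to 136893065 and C1qa at 136895917 to 136898803. The RefSeq windows that run from 250 bases before to 50 bases after the start of C1qb (chr4:136886151-136886450, minus strand, GRCm38.p6) and C1qc (chr4:136892865-136893164, minus strand, GRCm38.p6) are shown because these neighbours kept a near-constant ratio over the specimens. Capitals mark GAGGAA, the core letters of sites for PU.1, the transcription factor of the macrophage lineage, or its reverse complement TTCCTC.
C1qb: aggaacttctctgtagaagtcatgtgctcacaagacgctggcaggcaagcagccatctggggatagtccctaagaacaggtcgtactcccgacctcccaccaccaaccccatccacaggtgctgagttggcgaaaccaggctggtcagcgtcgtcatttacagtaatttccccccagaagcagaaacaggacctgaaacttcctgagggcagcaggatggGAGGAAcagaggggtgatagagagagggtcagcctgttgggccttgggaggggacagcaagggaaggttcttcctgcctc
C1qc: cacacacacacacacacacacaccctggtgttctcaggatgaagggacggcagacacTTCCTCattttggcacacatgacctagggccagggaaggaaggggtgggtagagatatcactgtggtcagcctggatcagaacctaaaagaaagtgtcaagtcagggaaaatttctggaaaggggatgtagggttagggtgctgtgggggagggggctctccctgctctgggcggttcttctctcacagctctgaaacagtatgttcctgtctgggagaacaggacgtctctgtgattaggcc
Both strands were searched, and these 6 letters occur in 28.3% of 32851 RefSeq promoter windows of the same length. Of the members, 7 matched the RefSeq table with 8 windows, of which 6 hold the letters. These are single windows of C1qb, C1qc, Mrc1 and Cd68 and a pair of overlapping windows of Ly6c2, and they describe sequence only.

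C1qb was lowest in the ApcMin knockout ileum tumours, at 28.9 and 26.1 FPKM, and highest in the knockout colon tumour, at 83.9 FPKM. The other tumours held 32.6 to 46.1 FPKM of C1qb, and normal tissue held 34.5 to 55.3 FPKM. In the order of the 12 groups by mean, 7 of 11 neighbouring pairs overlapped. The ratio of C1qc to C1qb stayed between 0.801 and 0.943 in all 23 specimens, a coefficient of variation of 5.03%. The ratio of C1qa to C1qb ran from 0.746 to 1.11, with a coefficient of variation of 10.7% and its highest value in knockout duodenum 1. No 50-base stretch of the longest transcripts of C1qa, C1qb or C1qc is shared with another gene.

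**Figure D1:**
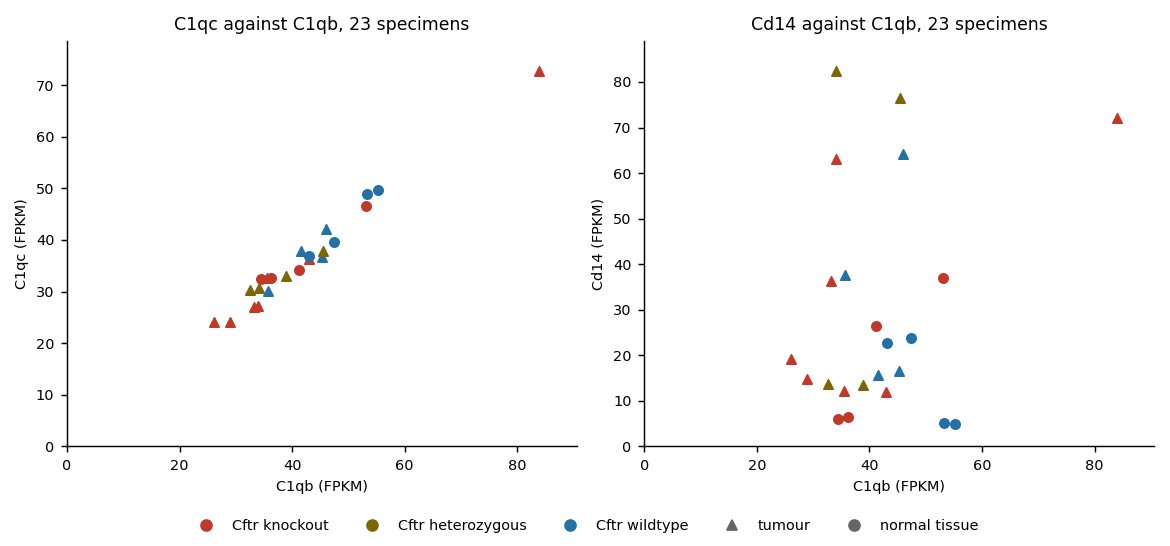
C1qc (left) and Cd14 (right) against C1qb in FPKM, 1 point per specimen, with colour for Cftr genotype, triangles for tumours and circles for normal tissue. C1qc follows C1qb at a ratio of 0.801 to 0.943, whereas Cd14 runs from 4.93 to 82.5 FPKM.

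Csf1r, the receptor through which CSF1 and IL-34 keep macrophages alive, was highest in wildtype duodenum at 25.0 and 24.4 FPKM and next in the knockout colon tumour at 22.8 FPKM. Knockout duodenum held 14.8 and 14.3 FPKM, knockout duodenal tumours 14.6 and 14.2, knockout colon 13.1 and 14.4, and wildtype colon 14.6 and 14.4. These 4 groups lay between 13.1 and 14.8 FPKM. The ApcMin tumours were at 7.01 to 14.7 FPKM, lowest in heterozygous colon tumours at 8.78 and 7.01. In the order of groups, 9 of 11 neighbouring pairs overlapped. Csf1r overlaps Hmgxb3 on the other strand, which shares 17.7% of its 50-base stretches, and without strand information reads there cannot be assigned.

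Cd68, a glycoprotein of macrophage endosomes and lysosomes, was at 19.9 FPKM in the knockout colon tumour and at 5.43 to 13.9 FPKM elsewhere. ApcMin Cftr wildtype colon tumours were uneven, at 13.9 FPKM in tumour 1 and 5.82 FPKM in tumour 2. Heterozygous colon tumours held 13.4 and 11.6 FPKM. Of 11 neighbouring pairs of groups, 8 overlapped.

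Mrc1, the mannose receptor CD206 of resident and alternatively activated macrophages, was at 10.5 FPKM in the knockout colon tumour. Normal colon of both genotypes held 4.51 to 5.47 FPKM and normal duodenum 1.41 to 2.69 FPKM. ApcMin ileum tumours split by genotype, with 2.95 and 2.36 FPKM in knockouts and 6.33 and 5.34 FPKM in Cftr wildtypes. Cd163, the scavenger receptor for haemoglobin bound to haptoglobin, was the rarest member and reached 1 FPKM in 7 of 23 specimens. It was at 1.80 FPKM in the knockout colon tumour, at 1.05 to 1.61 FPKM in normal colon and at 1.18 to 1.25 FPKM in ApcMin Cftr wildtype ileum tumours, and below 1 FPKM elsewhere.

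Ly6c2, which encodes a Ly6C antigen of newly arrived monocytes, had its lowest group means in the ApcMin ileum tumours. Those labelled knockout held 2.40 and 2.65 FPKM, and those with wildtype Cftr 2.70 and 4.59 FPKM. ApcMin knockout colon tumours held 4.49 and 3.97 FPKM, against 11.1 and 14.3 FPKM in the Cftr wildtype ones, with no overlap. Heterozygous tumours held 3.57 and 4.51 FPKM in duodenum and 9.11 and 7.62 FPKM in colon. Knockout tumours held 11.3 and 9.68 FPKM in duodenum and 12.4 FPKM in colon. Normal duodenum was at 8.55 and 7.85 FPKM in knockouts and 16.4 and 17.2 FPKM in wildtypes, and normal colon at 20.1 and 27.1 FPKM in knockouts and 14.7 and 20.3 FPKM in wildtypes. Knockouts were thus lower than wildtypes in duodenum and overlapped with them in colon. Ly6c2 shares 12.6% of its 50-base stretches with its paralog Ly6c1, so part of its reads could have been counted for either gene.

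Cd14 is the co-receptor that hands lipopolysaccharide to TLR4. Normal duodenum was lowest, at 5.97 and 6.38 FPKM in knockouts and 5.04 and 4.93 FPKM in wildtypes. Small intestinal tumours came next: ApcMin knockout ileum tumours held 14.9 and 19.1 FPKM, Cftr wildtype ones 15.7 and 16.5, heterozygous duodenal tumours 13.6 and 13.4, and knockout duodenal tumours 12.0 and 12.2. Normal colon held 26.4 and 36.9 FPKM in knockouts and 22.7 and 23.7 FPKM in wildtypes, and every colon tumour except ApcMin knockout tumour 2 exceeded it. The colon tumours were at 63.1 and 36.2 FPKM in ApcMin knockouts, 64.1 and 37.5 in ApcMin Cftr wildtypes, 76.5 and 82.5 in heterozygotes and 72.02 in the knockout. Of 11 neighbouring pairs of groups, 3 overlapped.

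Lyz2, the lysozyme of macrophages and neutrophils, was the most abundant member in FPKM, from 72.6 in ApcMin knockout ileum tumour 2 to 427 in the knockout colon tumour. It shares 15.4% of its 50-base stretches with Lyz1, the Paneth cell lysozyme next to it on chromosome 10, which was at 4314 and 4273 FPKM in wildtype duodenum.

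**Figure D2:**
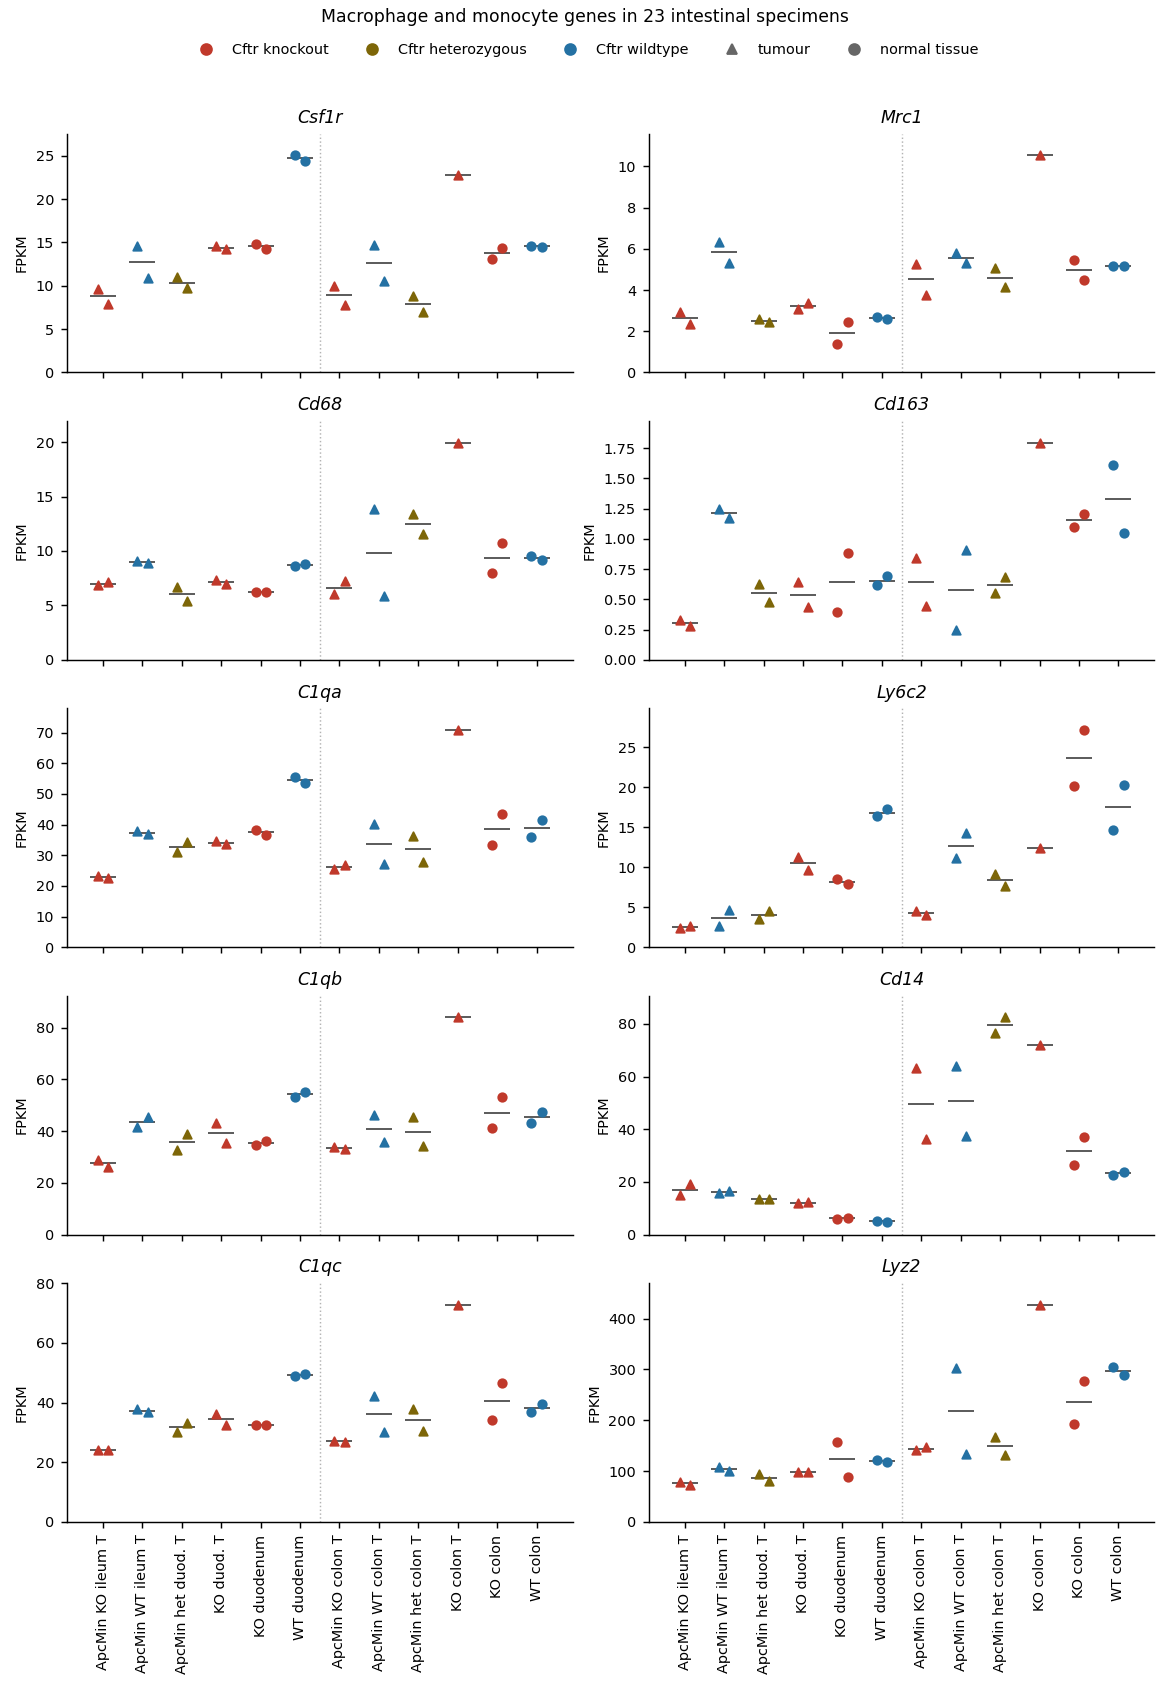
FPKM of the 10 genes in each specimen (points) with the group mean (bar), for 12 groups with the small intestine left of the dotted line and colon right of it (T, tumour; KO, Cftr knockout; het, heterozygous; WT, Cftr wildtype). The knockout colon tumour is the highest specimen for 7 of the 10 genes, Ly6c2 has its lowest means in ApcMin ileum tumours, and Cd14 is lowest in normal duodenum.

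To set the small intestine against colon, normal duodenum was compared with normal colon over both Cftr genotypes. By the labels every duodenum specimen is epithelium and every colon specimen whole tissue, so organ and tissue preparation cannot be told apart here. Duodenum had less Cd14, Mrc1, Lyz2, Ly6c2 and Cd163 and more Csf1r, whereas C1q and Cd68 did not pass the test. Of the 10 members 5 fell and 1 rose, where 55.6% of 14098 tested genes passed (limma on log2(FPKM + 1), Benjamini-Hochberg adjusted p under 0.05). Cd14 averaged 5.78 ± 0.720 FPKM in duodenum (SD, 3 samples, the wildtypes counted as 1) and 27.4 ± 6.49 in colon (SD, 4 specimens), a log2 change of -2.09 (SE 0.20, adjusted p = 2.88e-06). Mrc1 averaged 2.17 ± 0.668 FPKM in duodenum and 5.08 ± 0.404 in colon (log2 change -0.90, SE 0.14, adjusted p = 0.000146). Lyz2 averaged 122 ± 34.0 FPKM in duodenum and 266 ± 49.5 in colon (log2 change -1.13, SE 0.26, adjusted p = 0.00235). Each of these genes was lower in every duodenum than in every colon specimen.

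Ly6c2 averaged 11.1 ± 4.98 FPKM in duodenum and 20.5 ± 5.11 in colon (log2 change -0.72, SE 0.17, adjusted p = 0.00290), with overlap between the organs. Csf1r averaged 18.0 ± 5.87 FPKM in duodenum and 14.1 ± 0.696 in colon (log2 change 0.40, SE 0.14, adjusted p = 0.0232), and knockout duodenum, at 14.8 and 14.3 FPKM, overlapped colon. Without knockout colon 1, knockout duodenum 1 or wildtype colon 2 its adjusted p was 0.0652, 0.0543 or 0.0521, and with quantile normalisation 0.0669. The median change of the members was -0.37, against 0.02 over all tested genes.

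Among genes that act with the members, the shares that passed are to be read against the 55.6% of all genes. Tlr4, the signalling receptor that CD14 serves, was at 0.552 FPKM in duodenum and 8.00 in colon, a log2 change of -2.502. Of 9 genes of monocyte recruitment 5 fell and 1 rose, among them the chemokine Ccl8 (-3.00) and the monocyte receptor Ccr2 (-0.87). Of 6 other classical complement genes 4 fell and 1 rose, with the protease C1s at -1.06 and the inhibitor Serping1 at -0.69. Other macrophage markers went both ways, 7 up and 6 down of 21, with Maf (3.15) and Mertk (1.75) up and Folr2 (-1.67) down. Maf and Mertk are not confined to macrophages.

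Markers of other cells differed as well. Smooth muscle markers summed to 790 to 856 FPKM in duodenum and 2354 to 2961 FPKM in colon, with 3 of 6 down, and fibroblast markers to 140 to 177 FPKM in duodenum and 338 to 428 FPKM in colon, with 6 of 7 down. Paneth cell markers summed to 16684 to 30606 FPKM in duodenum and 580 to 1603 FPKM in colon. Their part in the members' changes was not tested. In bulk RNA, fewer cells of a type and less RNA per cell cannot be told apart, here and in all that follows.

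ApcMin ileum tumours were set against ApcMin colon tumours, over knockout and wildtype Cftr. The 8 tumours carry 2 animal numbers, 1 for each genotype, so their SDs measure the spread between tumours and not between animals. The p-values rest on the spread pooled over all groups, within animals for ApcMin pairs and between animals for Apc wildtype pairs. Cd14, Ly6c2 and Lyz2 fell and no member rose, 3 of 10 called, where 24.1% of all genes passed. Cd14 averaged 16.5 ± 1.83 FPKM in ileum tumours and 50.2 ± 15.4 in colon tumours (SD, 4 specimens each; log2 change -1.501, SE 0.18, adjusted p = 7.67e-05). Ly6c2 averaged 3.09 ± 1.01 FPKM in ileum tumours and 8.46 ± 5.06 in colon tumours (log2 change -1.07, SE 0.15, adjusted p = 0.000248). Lyz2 averaged 89.7 ± 16.9 FPKM in ileum tumours and 180.5 ± 81.1 in colon tumours (log2 change -0.93, SE 0.23, adjusted p = 0.0102). Cd14 and Lyz2 separated the tumours of the 2 organs without overlap, and Ly6c2 did not.

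Tlr4 fell in ileum tumours as well (-1.33), as did Ccr2 (-0.67), Ccl7 (-1.25), Ccl8 (-1.37), Ly6c1 (-1.59) and the coagulation factor gene F13a1 (-2.02), which monocytes express. Of 9 genes of monocyte recruitment 3 fell and 0 rose. The 10 other monocyte markers, Ly6c1 and F13a1 among them, went both ways, with 5 up, 4 down and a median of 0.28. Neutrophil markers summed to 191 to 320 FPKM in ileum tumours and 107 to 1105 FPKM in colon tumours, and 4 of 12 fell. Smooth muscle sums were 571 to 683 FPKM in ileum tumours and 116 to 961 FPKM in colon tumours, so they overlapped. Without ApcMin Cftr wildtype colon tumour 1 the change of Lyz2 was -0.64 (adjusted p = 0.0211).

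**Figure D3:**
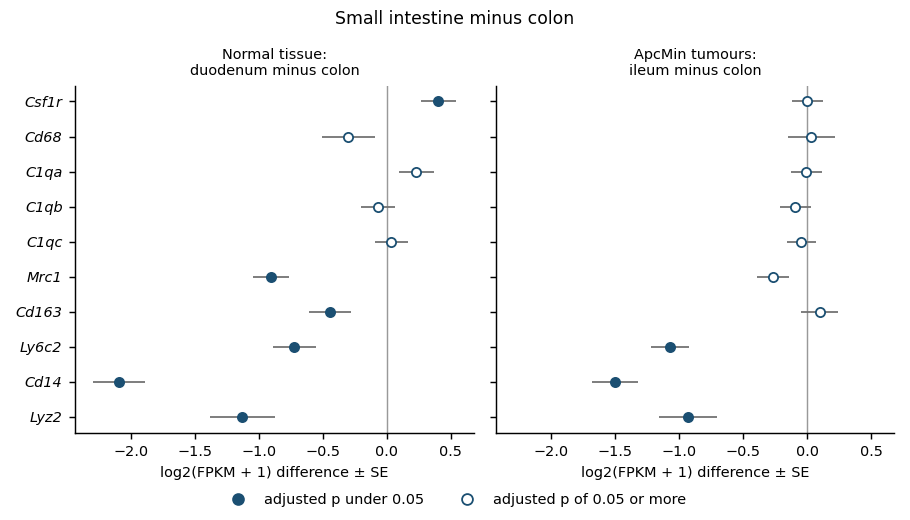
Difference in log2(FPKM + 1) with its SE for each gene, duodenum minus colon in normal tissue (left) and ileum minus colon in ApcMin tumours (right); filled points passed an adjusted p of 0.05. Cd14, Ly6c2 and Lyz2 are below 0 and filled in both, at -2.09, -0.72 and -1.13 in normal tissue and -1.501, -1.07 and -0.93 in tumours. Normal duodenum is labelled epithelium and normal colon whole tissue.

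The comparison of Cftr knockout with wildtype asked whether loss of the channel goes with a change in these cells. In normal colon no member passed the test, which does not show that none changed. The test called 0 of 10, where 0% of genes passed, and at an unadjusted p under 0.05 limma gave 0 members and 948 of 14098 genes. The smallest p among the members was that of Ly6c2, at 23.6 ± 4.94 FPKM in knockouts and 17.5 ± 3.96 in wildtypes (SD, 2 specimens each; log2 difference 0.42, SE 0.21, adjusted p = 0.789). Cd14 was next, at 31.6 ± 7.40 FPKM in knockouts and 23.2 ± 0.723 in wildtypes (log2 difference 0.41, SE 0.26, adjusted p = 0.834). The median difference of the members was -0.02 and that of all genes 0.00. Without knockout colon 1 the median was 0.17.

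In normal duodenum the members were mostly lower in knockouts, with no call. Differences were negative for 9 of 10 members, with a median of -0.48 against 0.01 over all genes. The test called 0 of 10, where 0% of genes passed, and at an unadjusted p under 0.05 limma gave 5 members and 368 of 14098 genes. Ly6c2 was at 8.20 ± 0.498 FPKM in knockouts (SD, 2 specimens) and 16.8 in wildtypes, which count as 1 sample (log2 difference -0.95, SE 0.26, adjusted p = 0.717). Csf1r was at 14.6 ± 0.397 FPKM in knockouts and 24.7 in wildtypes (log2 difference -0.73, SE 0.21, adjusted p = 0.825). The C1q chains lay between -0.60 and -0.53, and C1qb was at 35.4 ± 1.27 FPKM in knockouts and 54.3 in wildtypes. Knockouts lay below both wildtype values without overlap for 7 members, where 25% of genes did, and above them for Cd14, where 28.4% of genes did, and the wildtype side is 1 sample. Cd14 was at 6.18 ± 0.292 FPKM in knockouts and 4.98 in wildtypes. With the wildtype specimens counted as 2 and the replicate number as a block, Csf1r passed (adjusted p = 0.0430).

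Of 21 other macrophage markers 2 had positive differences in duodenum, with a median of -0.42, and none passed. Endothelial markers had 0 of 8 positive (median -0.41) and fat markers 1 of 5 (median -2.12). Plin1, a defining fat gene, was at 0.179 and 1.16 FPKM in knockout duodenum and 6.20 and 5.72 FPKM in wildtype duodenum, in the same specimens. The part of these cells in the members' values was not tested. The knockout-minus-wildtype difference was then compared between organs, duodenum minus colon. The test called 0 of 10, where 0% of genes passed, with 4 members and 315 genes at an unadjusted p under 0.05 in limma. Ly6c2 had the smallest p (-1.37, SE 0.34, adjusted p = 1) and C1qc the next (-0.65, SE 0.25, adjusted p = 1).

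In ApcMin colon tumours Ly6c2 was the 1 member of 10 that changed, where 0.0638% of genes (9 of 14098) passed. It averaged 4.23 ± 0.370 FPKM in knockout tumours and 12.7 ± 2.27 in Cftr wildtype tumours (SD, 2 specimens each; log2 change -1.38, SE 0.21, adjusted p = 0.0462). The other members gave differences from -0.48 (Lyz2) to 0.08 (Cd163), and the median was -0.36. Csf1r was at 8.91 ± 1.54 FPKM in knockout tumours and 12.6 ± 2.94 in wildtype ones (difference -0.45, adjusted p = 0.338). Ly6c1, the paralog, had the opposite sign, without passing, at 77.1 and 72.9 FPKM in knockout tumours and 42.5 and 47.0 FPKM in wildtype tumours. The call of Ly6c2 was lost without wildtype tumour 1 (log2 change -1.55, adjusted p = 0.168), without knockout tumour 1 (-1.45, 0.219) or without knockout tumour 2 (-1.31, 0.0575), with the 2 groups fitted alone (0.958), with a pseudocount of 0.1 (0.0556) and with quantile normalisation (0.0568). Without wildtype tumour 2 the test called 6 members, and 1921 of 14098 genes, and the median was -0.62, and without wildtype tumour 1 the median was -0.11.

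Markers of other cells stood beside this. Neutrophil markers summed to 219 and 107 FPKM in knockout tumours and to 1105 and 215 FPKM in wildtype tumours 1 and 2, with 0 of 12 differences positive (median -1.29). B and plasma cell markers summed to 210 and 148 FPKM in knockout tumours and 654 and 599.6 FPKM in wildtype tumours. Markers of small-intestinal enterocytes had 10 of 10 positive (median 1.96). None of these passed, and their part in the value of Ly6c2 was not tested.

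In ApcMin ileum tumours 9 of 10 members were lower in knockouts without overlap between the specimens, where 21% of genes were, and none passed. The test called 0 of 10, where 0.121% of genes (17 of 14098) passed, and limma gave 6 members and 825 genes at an unadjusted p under 0.05. Mrc1 was at 2.65 ± 0.418 FPKM in knockout tumours and 5.83 ± 0.703 in wildtype tumours (SD, 2 specimens each; log2 difference -0.90, SE 0.18, adjusted p = 0.104). C1qa was at 22.8 ± 0.512 FPKM in knockout tumours and 37.4 ± 0.577 in wildtype tumours (log2 difference -0.69, SE 0.17, adjusted p = 0.227). Cd14 alone overlapped, at 17.0 ± 2.99 FPKM in knockout tumours and 16.1 ± 0.612 in wildtype tumours. The median was -0.54, against 0.01 over all genes, and 1 of 21 other macrophage markers had a positive difference (median -0.33). Serping1, the inhibitor of the C1 proteases, was the 1 gene of these pathways to change, at 30.1 FPKM in knockout tumours and 48.9 in wildtype tumours (log2 change -0.69, adjusted p = 0.0480). With the compared groups fitted alone the test called 2 members, C1qa among them (adjusted p = 0.0477), and 120 genes.

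Markers of other cells differed in these ileum tumours too, without passing. Neutrophil markers had 1 of 12 differences positive (median -0.55) and summed to 191 and 211 FPKM in knockout tumours and 320 and 210 FPKM in wildtype tumours. Endothelial markers had 0 of 8 positive (median -0.20), T cell markers 0 of 8 (-0.10) and fibroblast markers 1 of 7 (-0.28), whereas mast cell markers had 6 of 6 positive (0.71). Their part in the members' values was not tested.

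Whether the Cftr difference itself differed between the organs of ApcMin tumours was tested as ileum minus colon. The test called 0 of 10, where 0% of genes passed, with 3 members and 676 genes at an unadjusted p under 0.05 in limma. Ly6c2 gave 1.01 (SE 0.30, adjusted p = 0.935), and Cd163 gave -0.84 (SE 0.29, adjusted p = 0.935).

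**Figure D4:**
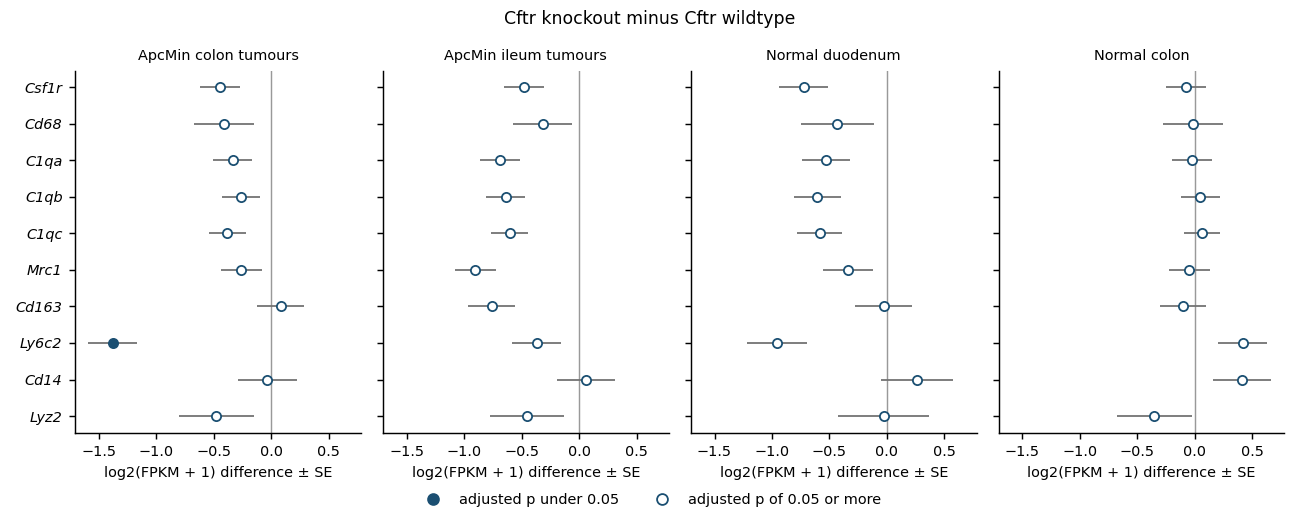
Difference in log2(FPKM + 1) with its SE for each gene, Cftr knockout minus wildtype, in ApcMin colon and ileum tumours and in normal duodenum and colon. Ly6c2 in ApcMin colon tumours (-1.38) is the one filled point, which marks an adjusted p under 0.05; medians were -0.36, -0.54, -0.48 and -0.02 from left to right.

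The knockout mice with wildtype Apc offered tumours of both organs beside normal tissue. The colon side is a single tumour, which the fit assumes to vary like the other groups, so its p-values rest on their spread. That tumour had more Csf1r, Mrc1, Cd14 and all 3 C1q chains than knockout colon, and less Ly6c2. Among these calls Csf1r (log2 change 0.69, SE 0.21) lay nearest the threshold. Of the 10 members 6 rose and 1 fell, where 12.8% of genes passed, with a median change of 0.86 against 0.00 over all genes. Mrc1 was at 10.5 FPKM in the tumour and 4.99 ± 0.679 in colon (SD, 2 specimens; log2 change 0.95, SE 0.22, adjusted p = 0.0165). C1qa was at 70.8 FPKM in the tumour and 38.4 ± 7.13 in colon (log2 change 0.88, SE 0.21, adjusted p = 0.020). C1qb was at 83.9 FPKM in the tumour and 47.1 ± 8.37 in colon (log2 change 0.83, SE 0.21, adjusted p = 0.0235). All 3 chains rose to a like degree, C1qc by 0.85 on the log2 scale (SE 0.20, adjusted p = 0.0178).

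Ly6c2 went the other way, at 12.4 FPKM in the tumour and 23.6 ± 4.94 in colon (log2 change -0.86, SE 0.26, adjusted p = 0.0486). Cd68 and Lyz2 gave 1.03 (adjusted p = 0.0508) and 0.88 (0.149) and did not pass. With knockout tumour and colon fitted alone no member passed, while genes outside the members still did. Without knockout colon 1 the member calls other than Mrc1 were lost, and without knockout colon 2 those of Mrc1 and Ly6c2 among others. Each side was then a single specimen. Calls over all genes fell too, so these losses cannot be read as particular to the members. Ly6c2 was also lost with a pseudocount of 0.1 (0.0663), no filter (0.0638), quantile normalisation (0.0504) and run 2 columns (0.0632).

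Recruitment and complement genes rose in the same tumour. Of 9 recruitment genes 5 rose, with the monocyte chemokines Ccl2 at 22.8 FPKM in the tumour and 2.06 in colon (log2 change 2.97) and Ccl7 at 18.7 and 1.91 (2.76). Il34, a second ligand of the CSF1 receptor, was at 15.6 FPKM in the tumour and 4.30 in colon (1.67). Ly6c1 was at 84.3 FPKM in the tumour and 31.8 in colon (1.40), opposite to its paralog Ly6c2. Of 10 other monocyte markers, Ly6c1 among them, 9 had positive differences (median 1.09). In the complement list 5 of 6 rose, among them C4b (2.71) and C1ra (1.62). Of 13 activation genes 8 rose, with Arg1 at 46.8 FPKM in the tumour and 0.369 in colon, and the secreted phosphoprotein Spp1 at 152 and 0.478. Neutrophil genes rose in 9 of 12, S100a8 to 223 FPKM in the tumour against 1.61 in colon. Endothelial markers rose in 6 of 8 and fibroblast markers in 5 of 7. Since Cd14 and Lyz2 are also expressed by neutrophils, those sums stand beside them, and their part was not tested.

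The 2 knockout duodenal tumours gave differences from knockout duodenum of -0.13 to 0.14 for the C1q chains. The test called 0 of 10, where 8.16% of genes passed, and limma gave 2 members and 3265 genes at an unadjusted p under 0.05. Cd14 averaged 12.1 ± 0.133 FPKM in tumours and 6.18 ± 0.292 in duodenum (SD, 2 specimens each; log2 difference 0.87, SE 0.26, adjusted p = 0.0557). In runs 1 and 2 it was at 14.1 and 9.90 FPKM in tumour 1 and at 11.9 and 12.5 FPKM in tumour 2. The SD of the averages does not show this gap between runs. Mrc1 averaged 3.22 ± 0.219 FPKM in tumours and 1.93 ± 0.745 in duodenum (log2 difference 0.55, SE 0.18, adjusted p = 0.0804). Csf1r was at 14.4 ± 0.250 FPKM in tumours and 14.6 ± 0.397 in duodenum, a difference of -0.02. Cd14 passed with a pseudocount of 0.1 (adjusted p = 0.0417), in run 1 columns (0.0157) and with the replicate block (0.0452), and Mrc1 passed without knockout duodenum 2 (0.0261). Tlr4 rose in these tumours, to 3.14 FPKM against 0.478 in duodenum (log2 change 1.48).

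ApcMin knockout colon tumours were set against knockout colon within run 2, in which both were read. Ly6c2 and Csf1r fell, 2 of 10 members, where 11% of 14006 genes passed. Ly6c2 averaged 4.23 ± 0.370 FPKM in tumours and 23.8 ± 5.75 in colon (SD, 2 specimens each; log2 change -2.23, SE 0.25, adjusted p = 0.00137). Csf1r averaged 8.91 ± 1.54 FPKM in tumours and 14.3 ± 0.863 in colon (log2 change -0.63, SE 0.17, adjusted p = 0.0412). Ly6c2 stayed past the test without any 1 of the 4 specimens. Csf1r did not, with adjusted p of 0.0527 without tumour 1, 0.199 without tumour 2, 0.136 without colon 1 and 0.168 without colon 2, nor without the filter on low values (0.0530) or with these groups alone (0.0788). Of the 10 members 9 had negative differences, with a median of -0.44, and Cd14 gave 0.67 (adjusted p = 0.137).

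Other macrophage markers fell in 5 of 21 and rose in none, with Emr1, the gene of F4/80, at 3.68 FPKM in tumours and 7.44 in colon (log2 change -0.86). Ccl2 (1.87) and Ccl7 (1.38) rose, as did Arg1 (4.63) and Spp1 (4.49), while Retnla, a gene of alternative activation, fell (-3.36). Ly6c1 rose (1.30), opposite to Ly6c2. Neutrophil markers rose in 5 of 10 (median 1.18). Smooth muscle markers had 0 of 6 differences positive and 1 fell (median -2.99). B and plasma cell markers had 0 of 8 positive and 2 fell (-1.45), and T cell markers 0 of 8 positive and 1 fell (-0.35). The part of these cells in the members' changes was not tested.

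With wildtype Cftr, ApcMin colon tumours against wildtype colon in run 2 gave 1 rise and 1 fall among 10 members, where 38.2% of 14006 genes passed. Cd14 averaged 50.8 ± 18.8 FPKM in tumours and 23.0 ± 1.22 in colon (SD, 2 specimens each; log2 change 1.06, SE 0.28, adjusted p = 0.0133). Cd163 averaged 0.579 ± 0.465 FPKM in tumours and 1.44 ± 0.389 in colon (log2 change -0.65, SE 0.21, adjusted p = 0.0317). Ly6c2 gave -0.32 (adjusted p = 0.329) and Csf1r -0.28 (0.217). The calls of Cd14 and Cd163 were lost without colon 1 (0.0649 and 0.184), colon 2 (0.0593 and 0.0549) or tumour 1 (0.120 and 0.260), and with these groups alone (0.0969 and 0.178). With quantile normalisation Cd163 was lost too (0.0796). The median was -0.14, -0.32 without tumour 1 and 0.08 without tumour 2. Ctss, a lysosomal protease of antigen-presenting cells, fell (-1.39), Arg1 rose (4.29), and 10 of 10 neutrophil markers rose. Smooth muscle markers fell in 6 of 6 (median -3.26), fat markers in 5 of 6 (-1.60), B and plasma cell markers in 6 of 8 (-2.19) and T cell markers in 4 of 8 (-0.67), and their part was not tested.

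Heterozygous tumours were compared with wildtype tissue within run 1, in which they were read. In colon 1 member rose and 3 fell, where 47.6% of 13941 genes passed. Cd14 averaged 79.5 ± 4.21 FPKM in heterozygous tumours and 23.4 ± 0.221 in colon (SD, 2 specimens each; log2 change 1.72, SE 0.16, adjusted p = 0.000167). Ly6c2 averaged 8.36 ± 1.06 FPKM in tumours and 18.6 ± 3.30 in colon (log2 change -1.06, SE 0.16, adjusted p = 0.00125). Csf1r averaged 7.89 ± 1.25 FPKM in tumours and 13.7 ± 0.203 in colon (log2 change -0.73, SE 0.12, adjusted p = 0.00152). Lyz2 averaged 149 ± 25.7 FPKM in tumours and 306 ± 21.4 in colon (log2 change -1.04, SE 0.29, adjusted p = 0.0170). Tumour and colon specimens did not overlap for any of these genes. Lyz2 was lost without colon 1 (0.0790), colon 2 or its run 1 library (0.0554 each) or tumour 2 (0.104), and the median of -0.28 was -0.10 without tumour 2. Neutrophil markers summed to 1858 and 2382 FPKM in heterozygous tumours, the highest of all specimens, and 8.64 and 8.09 FPKM in wildtype colon, with 12 of 12 up. Smooth muscle markers fell in 5 of 6 (median -2.19), fat markers in 5 of 5 (-1.95), B and plasma cell markers in 6 of 8 (-2.29) and T cell markers in 5 of 8 (-0.87). The part of these cells in the members' changes was not tested.

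In heterozygous duodenal tumours 1 member rose and 2 fell, where 6.89% of 13941 genes passed. Ly6c2 averaged 4.04 ± 0.669 FPKM in tumours (SD, 2 specimens) and 17.4 in wildtype duodenum (log2 change -1.87, SE 0.20, adjusted p = 0.00276). Csf1r averaged 10.4 ± 0.911 FPKM in tumours and 25.0 in duodenum (log2 change -1.19, SE 0.14, adjusted p = 0.00427). Cd14 averaged 13.5 ± 0.103 FPKM in tumours and 5.24 in duodenum (log2 change 1.22, SE 0.20, adjusted p = 0.0135). The C1q chains gave -0.76 to -0.65 with adjusted p of 0.0605 to 0.114, and 9 of 10 members lay below both wildtype duodenum values without overlap, where 32.9% of genes did. The wildtype side is 1 sample, and for Cd163 the nearest values were 0.625 FPKM on both sides after rounding. With these groups alone no gene passed, so no member could, and the 3 lost calls cannot be read as particular to the members. With the wildtype duodenum counted as 2 specimens 7 members passed, and 3110 of 13941 genes. Among 21 other macrophage markers 1 had a positive difference (median -0.52) and Itgax, the integrin CD11c, fell (-1.02). Tlr4 rose (0.69). Fat markers had 0 of 5 differences positive and 2 fell (median -2.20). B and plasma cell markers had 0 of 8 positive (-1.43) and smooth muscle markers 0 of 6 (-0.61), with none past the test, while 3 of 12 neutrophil markers (0.20) and 2 of 6 mast cell markers (1.82) rose. Their part in the members' changes was not tested.

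**Figure D5:**
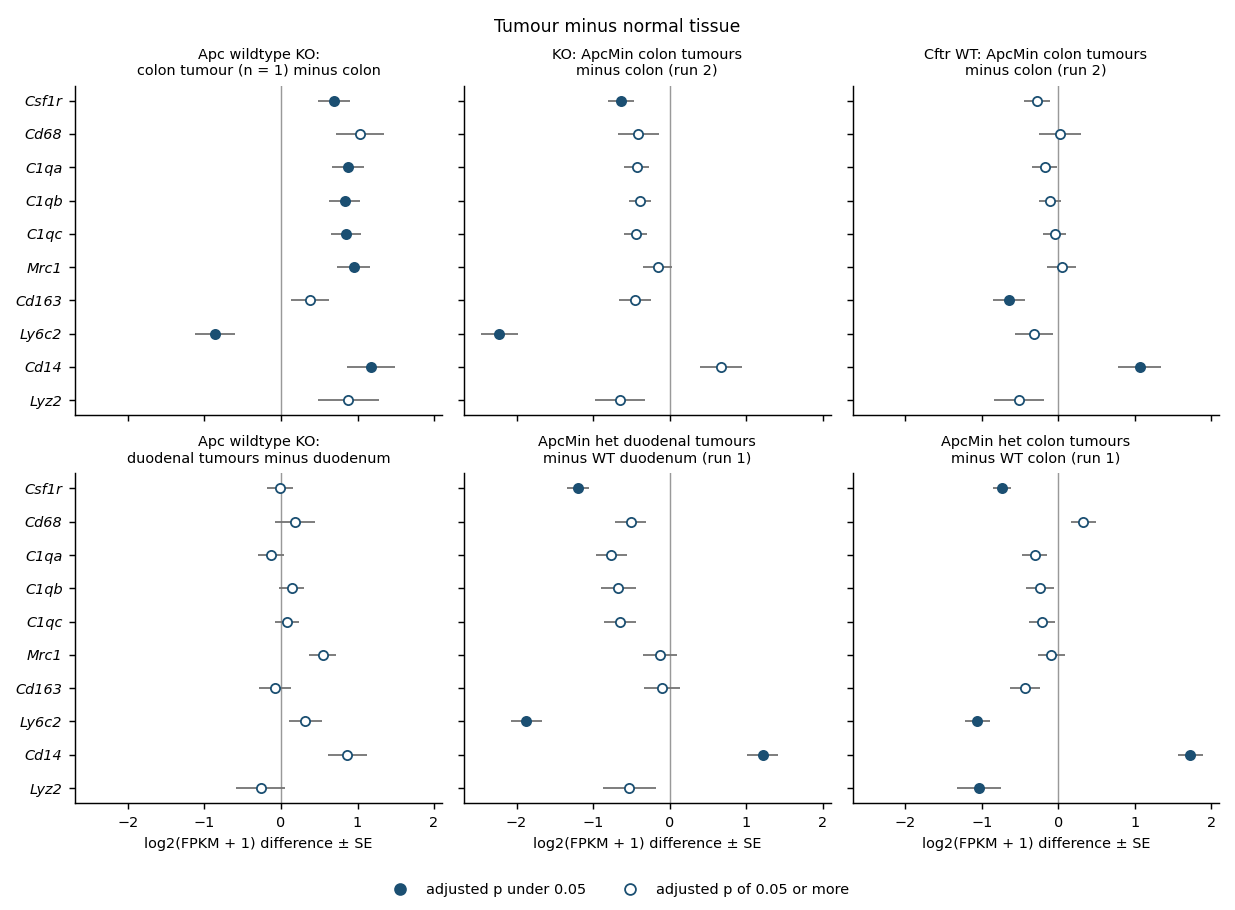
Difference in log2(FPKM + 1) with its SE for each gene, tumour minus normal tissue, in 6 comparisons; filled points passed an adjusted p of 0.05. Ly6c2 is filled and below 0 in 4 panels (-0.86, -2.23, -1.87 and -1.06), Cd14 is filled and above 0 in 4 (1.18, 1.06, 1.22 and 1.72), and Csf1r rises in the knockout colon tumour (0.69) and falls in ApcMin tumours of 3 panels (-0.63, -1.19 and -0.73).

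The tumour comparisons share specimens in part, since both comparisons of wildtype colon and both of knockout colon use the same normal tissue, so their values stand side by side and are not independent.

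Genes outside the set were ranked by the Pearson correlation of log2(FPKM + 1) over 22 samples among 9434 genes with a mean of 5 FPKM or more. This is a description, since the samples share groups and organs. Closest to Csf1r were Mpeg1 (r = 0.943), the pore-forming perforin-2 of macrophages, Ms4a6c (0.845), Pld4 (0.828), 4632428N05Rik (0.819) and Aif1 (0.802), the macrophage protein IBA1. Closest to the mean of the C1q chains were Ms4a6c (0.917), 4632428N05Rik (0.907), Ms4a7 (0.866), Plekho2 (0.863) and the apolipoprotein gene Apoe (0.861). Closest to Ly6c2 were Ces1g (0.834), a carboxylesterase, Ms4a4d (0.808), Ptcd2 (0.805), the phospholipid transfer protein gene Pltp (0.789) and Hibadh (0.786), an enzyme of valine breakdown. None of the genes named here for Ly6c2 was among those named for Csf1r or C1q. Ly6c2 itself correlated with Csf1r at r = 0.553 and with C1qa, C1qb and C1qc at 0.567, 0.605 and 0.599.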

How the data were processed

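Per the submitters' processing notes, reads were handled with FastQC, TopHat2 2.0.13, Cuffnorm and mm10. The authors deposited FPKM values in 1 table of 23356 rows and 68 columns without counts, so depth is known only relatively and no counting interval was computed. Columns were averaged per specimen over lanes and runs. The filter kept 14098 genes, all members included, that reached 1 FPKM in 2 or more specimens. They were fitted on the log2(FPKM + 1) scale by limma 3.58.1 (R 4.3.3; eBayes with a trend), Benjamini-Hochberg adjusted over all tested genes at 0.05. All groups shared one spread; ApcMin colon tumours against colon used run 2 columns and heterozygous tumours run 1 columns. This scale understates changes of low genes. The smallest exact permutation p for 2 specimens against 2 is 0.333. Counting the wildtype duodenum as 1 sample followed from a comparison of its specimens with lane noise.

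The members, lists and rules were chosen with earlier results of these data known. Named with full statistics were members past the test, up to 4 a direction by p, or else the 2 of smallest p, and up to 3 genes a list past the test. Same-animal colon and duodenum deviated together little (correlation 0.0332 in knockouts, 0.0103 in wildtypes). Gene positions and overlaps come from GENCODE for GRCm38, promoters from RefSeq. Tried besides were a replicate block, compared groups alone, quantile normalisation, a pseudocount of 0.1, no filter, single runs, leaving out each specimen or the wildtype colon 2 library of run 1, and the wildtype duodenum as 2 specimens.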

Additional observations from a re-analysis of the deposited data

Results flagged for a closer look

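For 7 members the knockout colon tumour with wildtype Apc lay above knockout colon while both ApcMin knockout colon tumours lay below it, all in run 2 columns. The share of all genes with this pattern was not computed, so the count cannot be read as particular to the members. The difference between these tumour-minus-colon changes, on the log2(FPKM + 1) scale, was 1.30 for Csf1r, 1.45 for Cd68, 1.52 for Lyz2, 1.37 for C1qa, 1.26 for C1qb, 1.37 for C1qc and 0.79 for Cd163. For Csf1r the changes were 0.67 in the Apc wildtype tumour and -0.63 in the ApcMin tumours. The difference was not tested, both changes share the colon specimens, and one side is a single tumour. Xist was at 0.335 FPKM in the Apc wildtype tumour and at 55.6 and 46.4 FPKM in the ApcMin knockout colon tumours. Apc genotype, sex and animal thus cannot be told apart here.

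In the Apc wildtype knockouts, Ly6c2 was lower than normal tissue in the colon tumour (-0.86) and higher in both duodenal tumours (0.32), a difference of -1.18. C1qa was higher in the colon tumour (0.88) and lower in both duodenal tumours (-0.13), a difference of 1.01. Cd68 was higher in both heterozygous colon tumours than in wildtype colon (0.33) and lower in both heterozygous duodenal tumours than in wildtype duodenum (-0.51), a difference of 0.84. These differences were not tested, and the knockout colon tumour and knockout duodenal tumour 2 share an animal number.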

How the results depend on the processing

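The 37 member changes named with full statistics, and no others, were recomputed 432 times under the alternatives. Their direction held each time; 379 kept their side of the threshold, 47 lost the call and 6 gained one. Medians over the 10 members did change sign, to 0.17 in colon by Cftr without knockout colon 1 and, without ApcMin Cftr wildtype colon tumour 2, to 0.10 for the Cftr difference between ileum and colon tumours and 0.0846 in ApcMin Cftr wildtype colon tumours against colon. The values that follow are counts of members called and medians of the 10 log2 changes, and the cause of each shift was not tested. Calls over all genes shifted too. With the compared groups alone 0 of 14098 genes passed in ApcMin colon tumours by Cftr, so no member could pass there. The same held in heterozygous duodenal tumours, where no gene passed. In ApcMin ileum tumours by Cftr 120 passed. Against colon, 791 of 14006 passed in ApcMin knockout and 414 in ApcMin Cftr wildtype colon tumours. In ApcMin colon tumours by Cftr a pseudocount of 0.1 called 6 genes and quantile normalisation 5, against 9 in the main fit. Fitting the compared groups alone gave 0 members in ApcMin colon tumours by Cftr, in the knockout colon tumour, in ApcMin Cftr wildtype colon tumours against colon and in heterozygous duodenal tumours, 1 in ApcMin knockout colon tumours against colon and 2 in ApcMin ileum tumours by Cftr. A pseudocount of 0.1 gave 0 in ApcMin colon tumours by Cftr, 1 in knockout duodenal tumours, and a median of -0.55 for duodenum against colon. Quantile normalisation gave 0 in ApcMin colon tumours by Cftr, 1 in ApcMin Cftr wildtype colon tumours against colon, and a median of 1.05 in the knockout colon tumour. No filter gave 1 in ApcMin knockout colon tumours against colon, and run 1 columns gave 1 in knockout duodenal tumours. With the wildtype duodenum as 2 specimens, heterozygous duodenal tumours had 7.

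The replicate block, fitted with the wildtype duodenum as 2 specimens, gave 1 member in duodenum by Cftr, 1 in knockout duodenal tumours and 6 in heterozygous duodenal tumours, and changed no other count by over 1.5 times. Under the block 30 of 14098, 1611 of 14098 and 3035 of 13941 genes passed in these comparisons, each time more than in the main fit. Same-numbered specimens that share only a number had correlated deviations in ApcMin tumours of colon (0.35) and ileum (0.2), in normal duodenum (0.108) and in normal colon (0.0141).

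Leaving out each specimen gave 0 to 6 members and medians of -0.62 to -0.11 in ApcMin colon tumours by Cftr, medians of -0.14 to 0.17 in colon by Cftr, -0.65 to -0.36 for the Cftr difference between duodenum and colon, and -0.50 to 0.10 for that between ileum and colon tumours. It gave 1 to 4 members and medians of 0.64 to 1.03 in the knockout colon tumour, 0 to 1 in knockout duodenal tumours, 1 to 1 in ApcMin knockout colon tumours against colon, 0 to 3 and medians of -0.32 to 0.0846 in ApcMin Cftr wildtype colon tumours against colon, and medians of -0.41 to -0.10 in heterozygous colon tumours. Wherever a range of members called is given here, the number of all genes called shifted as well. Each of these fits left a group with a single specimen. The ranges of members called thus cannot be read as particular to the members. Depth limits mainly Cd163, which lay near or below 1 FPKM.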
